A study of Mus musculus with 24 samples.

Results

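The 6 RNAs described here do not code for protein. Neat1 and Malat1 are long RNAs of the nucleus, Rpph1, Rmrp and Rn7sk are short folded RNAs at the core of ribonucleoprotein particles, and Gm42418 is a predicted gene at a ribosomal RNA repeat. They were chosen by the rule of the gene names, after their CPM in these same 24 libraries had been seen, and found through the Ensembl mouse identifiers of the count tables, and are 6 of the 47643 genes counted. The levels and differences that follow are therefore a description: their tests describe these libraries and are no independent evidence.

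The libraries were made from organoids grown from salivary gland stem/progenitor cells of C57BL/6 mice. The glands had received irradiation (IR) or a sham treatment, and the cells were taken 90 or 14 days afterwards. The 8 groups of 3 libraries were IR and sham at day 90 in passage 2, IR and sham at day 90 in passage 1, IR and sham at day 14 in passage 2, and IR and sham at day 14 in passage 1. All groups shared the strain, culture in Matrigel with EGF, FGF2, insulin, the glucocorticoid dexamethasone and the ROCK inhibitor Y-27632, the RNA column with DNase and the QuantSeq kit, which primes on poly(A) and reads the 3' side of transcripts. No source used here gives the radiation dose or the age and sex of the mice. The labels do not say that the 3 libraries of a group came from separate mice or cultures, so a p-value reflects no more than the library-to-library spread, part of which may be technical. Passage 2 is a later passage of such cultures and is not independent of passage 1. Day 90 and day 14 cannot be told apart from any difference in age, culture date or library batch that went with them.

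Each library held 1151608 to 3189466 counts on genes, and 11.5% to 26.5% of its reads fell on no annotated gene. The epithelial markers Epcam, Cdh1 and Krt5 were counted in all 24 libraries. The 11 markers of that list summed to 4720 to 10549 CPM. CPM are counts divided by a library total and brought to a common total. For the marker sums and the filter this was the plain total of gene counts, and otherwise the TMM-scaled total. The 8 fibroblast markers summed to 14.8 to 116 CPM, with Col3a1 and Pdgfrb at 0 in every library. The 8 immune markers summed to 0.403 to 49.2 CPM and the 5 endothelial markers to 0 to 2.11 CPM. Sham replicate 1 of day 14, passage 1 stood apart, with the highest share of reads on no gene (26.5%) and the highest share of counts on mitochondrial ribosomal RNA (15.8%). Group differences that rest on that library are given with and without it.

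Neat1 builds paraspeckles, nuclear bodies that hold RNA-binding proteins such as NONO and SFPQ. Malat1 gathers at nuclear speckles, which store splicing factors. Rpph1 is the catalytic RNA of RNase P, which trims the 5' ends of transfer RNA precursors and also cuts the tRNA-like ends of Malat1 and of the long Neat1 isoform. Rmrp is the related RNA of RNase MRP, which acts in ribosomal RNA processing, and Rn7sk is the RNA of the 7SK particle, which holds the elongation factor P-TEFb inactive. Rpph1, Rmrp and Rn7sk are made by RNA polymerase III and normally carry no poly(A) tail, and ribosomal RNA also lacks a stable one.

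Because the kit primes on runs of A, the stretch of each reference transcript with the most A follows, with its A-richest 20 bases in capitals. For the short Neat1 isoform the 3' end is shown, with the polyadenylation hexamer in capitals. The sequences are those of the GENCODE M21 transcripts, written 5' to 3' on the transcript strand. They come from an older build than the counts, so no genome positions are given.
Malat1: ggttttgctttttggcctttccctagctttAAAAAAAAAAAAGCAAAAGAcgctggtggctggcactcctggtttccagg
Neat1, long isoform: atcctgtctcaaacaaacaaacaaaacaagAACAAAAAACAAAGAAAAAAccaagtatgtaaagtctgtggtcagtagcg
Neat1, short isoform: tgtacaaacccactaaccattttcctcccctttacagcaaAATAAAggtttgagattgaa
Rpph1: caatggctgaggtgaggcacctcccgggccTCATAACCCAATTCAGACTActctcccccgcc
Rmrp: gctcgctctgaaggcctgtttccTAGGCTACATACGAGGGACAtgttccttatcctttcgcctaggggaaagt
Rn7sk: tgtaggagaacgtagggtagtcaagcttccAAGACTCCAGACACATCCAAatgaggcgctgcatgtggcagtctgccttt
Gm42418: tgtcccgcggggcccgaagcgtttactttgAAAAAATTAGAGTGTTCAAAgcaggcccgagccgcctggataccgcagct

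The long transcripts hold runs of A and the short ones do not. Malat1, of 6983 bases, has a run of 12 A that ends 298 bases before the 3' end of the reference transcript. Of the 7031 transcripts over 5000 bases, 19.8% hold a run of 12 or more. Where the ends of Malat1 and long Neat1 lie after cutting by RNase P was not examined. The long isoform of Neat1, of 20771 bases, has a longest run of 7 A and, as its A-richest stretch, 17 A in 20 bases. A run of 6 or more A is found in 86.5% of transcripts over 5000 bases. In Rpph1 (319 bases), Rmrp (271 bases) and Rn7sk (331 bases) the longest runs are 2, 3 and 3 A, while 10.5% of the 12328 transcripts of 200 to 400 bases have a run of 6 or more. Gm42418, of 1831 bases, has a run of 6 A, as 52.3% of transcripts of 1500 to 2500 bases have. The letters AATAAA were searched on the transcript strand in the last 50 bases. They are in the short isoform of Neat1 (3004 bases) and in Malat1, not in the 5 other transcripts, and in 26.6% of all 141767 transcripts. Where reads of these RNAs were primed was not tested.

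Some reads of these genes cannot be assigned with certainty, since no source used here gives the counting tool or its strand setting. Stretches of 31 bases of Rn7sk occur in 25 other genes, of which the closest, the predicted gene Gm24447, had 9 counts over all libraries. Stretches of Neat1 and Malat1 occur in 1349 and 2253 other genes. Rpph1 shares 203 such stretches with a transcript of Ccnb1ip1, which had 0 counts. Rmrp shares 94 with Ccdc107, which lies across it on the opposite strand and had 747 counts against 172 for Rmrp. Gm42418 shares 1214 with CT010467.1 and 893 with AY036118, which had 10 and 0 counts. The isoforms of Neat1 were counted as 1 gene. The annotation places Neat1 and Malat1 next to each other on chromosome 19, on the same strand.

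All 6 RNAs were detected, at counts that set very different precision. Summed over the 24 libraries there were 336561 counts on Malat1, 15768 on Neat1, 3596 on Rn7sk, 427 on Rpph1 and 172 on Rmrp. A library held 4 to 50 counts on Rpph1 and 0 to 37 on Rmrp, and the 1 library without a count on Rmrp, at a total of 1491200 counts, allows up to 3 counts, or 2.09 CPM. Gm42418 had 11084412 counts. All 6 entered the test across 10563 genes, but Rmrp reached the filter's 4.78 CPM in 6 libraries only, all of day 14, passage 2, and Rpph1 in 14 libraries, 8 of them outside that stratum. The averaged passage and day differences of Rmrp are therefore tied to the filter: they are given as values, without a p and outside the counts of called RNAs. Its passage differences at day 14 and its day differences in passage 2 are tied to the filter too and are given without a p. Counts of the 6 RNAs under other settings include Rmrp.

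**Figure D1:**
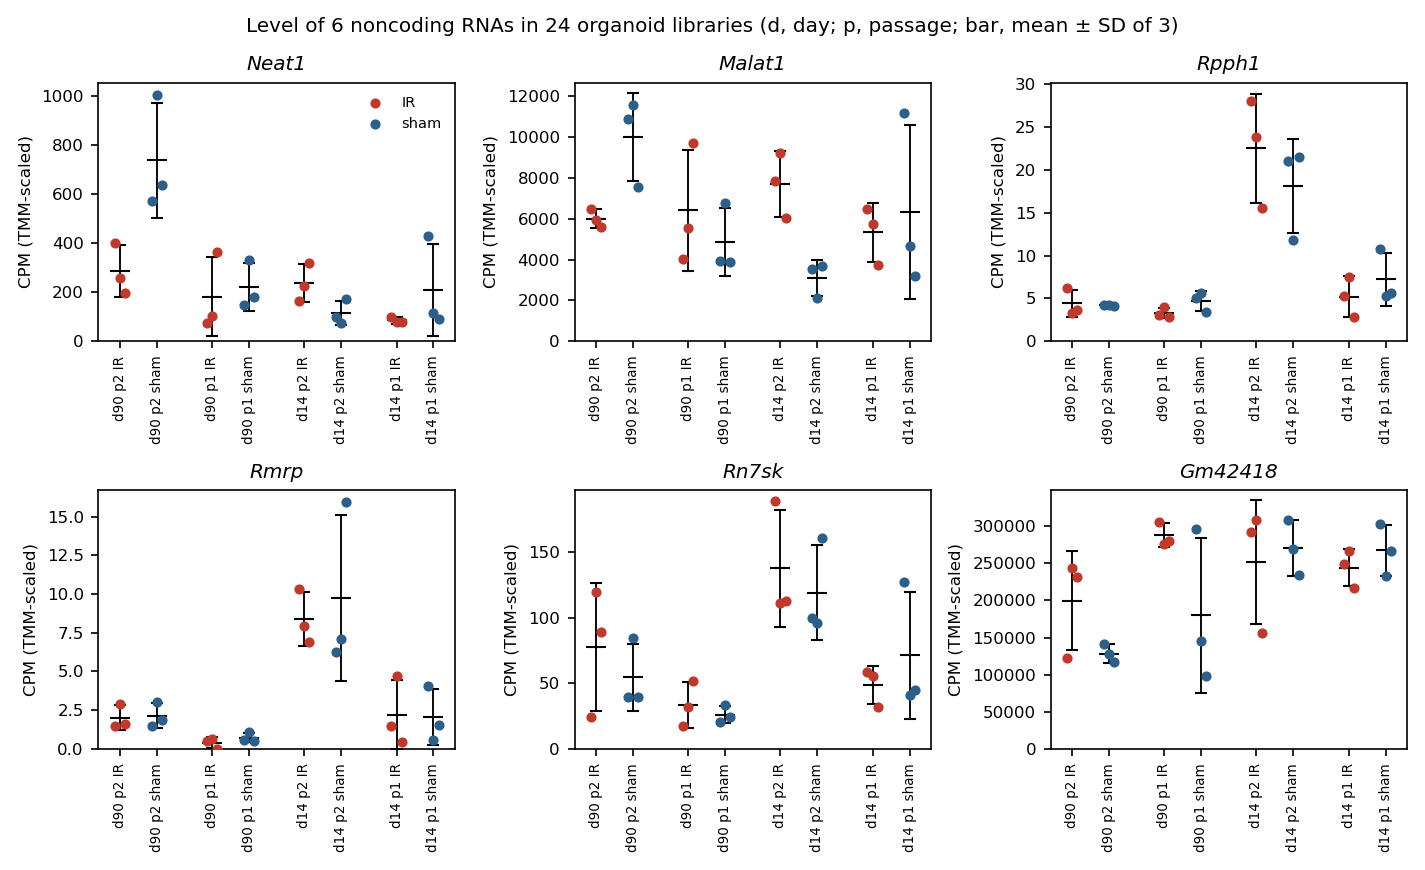
CPM of each RNA (vertical axes, linear and from 0) in the 24 libraries, with 1 point per library and the mean ± SD of each group of 3 as a bar, cut at 0 where it would pass below. Neat1 was highest in the sham libraries of day 90, passage 2 (571 to 1006 CPM), and Rpph1 and Rmrp were highest in the 6 libraries of day 14, passage 2.

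Irradiation of the gland was the study's main question, and none of the 6 RNAs passed the test for it. Averaged over the 4 strata of day and passage, the log2 fold changes of IR against sham were -0.48 (SE 0.27) for Neat1, 0.18 (SE 0.19) for Malat1, -0.15 (SE 0.20) for Rpph1, -0.31 (SE 0.39) for Rmrp, 0.12 (SE 0.25) for Rn7sk and 0.27 (SE 0.17) for Gm42418. The smallest adjusted p was 0.277, for Neat1 (edgeR quasi-likelihood test, Benjamini-Hochberg over all tested genes). With edgeR 0 of the 6 were called, 0 had an unadjusted p under 0.05 and DESeq2 called 0, while 11.0% of all tested genes were called. Within the strata 0 of 6 were called by either tool, against 4.92% of genes at day 90, passage 2, 0.0473% at day 90, passage 1, 0.0189% at day 14, passage 2 and 0.341% at day 14, passage 1. At an unadjusted p under 0.05 the numbers in these strata were 1, 0, 1 and 1, where 1929, 1339, 711 and 1160 of all 10563 genes were under it. They were Neat1 at day 90, passage 2 and at day 14, passage 1, and Malat1 at day 14, passage 2.

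The averages hide opposite patterns of Malat1 and Neat1 in passage 2. At day 90, Malat1 was at 6486, 5952 and 5592 CPM in IR organoids and at 10871, 11592 and 7529 CPM in sham organoids. Neat1 was at 402, 257 and 195 CPM in IR organoids and at 571, 1006 and 639 CPM in sham organoids. All 3 IR libraries lay below all 3 sham libraries for both RNAs, an arrangement found, in this direction, for 9.64% of tested genes. The log2 fold changes were -0.73 (SE 0.38) for Malat1 and -1.37 (SE 0.53) for Neat1, with adjusted p of 0.316 and 0.155.

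At day 14 of passage 2 the order was the other way round for Malat1. It was at 7863, 9239 and 6016 CPM in IR organoids and at 3551, 2107 and 3697 CPM in sham organoids, with no overlap, as for 6.06% of genes in this direction. Neat1 was at 166, 227 and 320 CPM in IR organoids and at 98.9, 76.2 and 171 CPM in sham organoids, and the groups overlapped. The log2 fold changes were 1.30 (SE 0.38, adjusted p = 0.525) for Malat1 and 1.04 (SE 0.54, adjusted p = 0.760) for Neat1. The share of reads on no gene was 15.4% to 22.1% in the IR and 12.9% to 16.1% in the sham libraries of this stratum, and the epithelial marker sum was 7158 to 7584 CPM in the IR and 9604 to 10093 CPM in the sham libraries. Their part in the difference was not tested.

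The difference between the IR effects at day 90 and day 14 within passage 2 was tested as an interaction. It was -2.04 (SE 0.54) on the log2 scale for Malat1 and -2.41 (SE 0.76) for Neat1. The unadjusted p were 0.00101 and 0.0043, ranks 20 and 59 among all genes, and the adjusted p were 0.532 and 0.765. Of the 6 RNAs edgeR called 0 and DESeq2 0, with 2 at an unadjusted p under 0.05, while 0.00947% of genes were called. Averaged over both passages, the interaction of IR with day was -0.70 (SE 0.38, adjusted p = 0.614) for Malat1, -0.70 (SE 0.54, adjusted p = 0.751) for Neat1 and 0.77 (SE 0.35, adjusted p = 0.512) for Gm42418. The interaction of IR with passage was largest for Rpph1, at 0.70 (SE 0.39, adjusted p = 0.904).

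In passage 1 the IR and sham libraries of both RNAs overlapped. At day 90, Neat1 was at 76.3, 103 and 366 CPM in IR organoids and at 148, 332 and 180 CPM in sham organoids, and Malat1 at 4006, 5523 and 9728 CPM in IR and at 3936, 6769 and 3883 CPM in sham organoids. At day 14, Neat1 was at 101, 77.5 and 77.4 CPM in IR organoids and at 427, 113 and 89.3 CPM in sham organoids, where the high value is the library that stood apart. At day 14, Malat1 was at 6495, 5760 and 3739 CPM in IR organoids and at 11164, 4646 and 3178 CPM in sham organoids. With that library the log2 fold change of Neat1 at day 14 was -1.29 (SE 0.56, adjusted p = 0.392), and without it -0.25 (adjusted p = 0.965).

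The polymerase III RNAs did not separate IR from sham organoids in any stratum. Rn7sk was at 189, 111 and 113 CPM in IR and at 100.0, 96.3 and 161 CPM in sham organoids of day 14, passage 2. At day 90, passage 2, it was at 24.4, 119 and 88.8 CPM in IR and at 39.2, 84.2 and 39.8 CPM in sham organoids. The SDs of these groups, 25.8 to 48.5 CPM, are of the size of the differences between their means.

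Gm42418 had higher mean shares in IR than in sham libraries at day 90, with a wide spread between the libraries of some groups. It took 13.5%, 24.3% and 23.02% of the gene counts in IR libraries and 15.5%, 14.3% and 13.1% in sham libraries of day 90, passage 2. In passage 1 of day 90 it took 29.0%, 26.9% and 27.0% in IR libraries and 28.6%, 15.9% and 11.8% in sham libraries. In both strata the ranges of the IR and sham libraries overlapped. Counting error on these shares is at most 0.0786 percentage points (95% Wilson interval) and covers counting only, since reads without molecular identifiers are not independent molecules. The log2 fold changes were 0.64 (SE 0.35) and 0.68 (SE 0.35), with adjusted p of 0.351 and 0.421.

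Passage went with Rn7sk and Rpph1. Averaged over the 4 strata of day and treatment, Rn7sk was higher in passage 2 than in passage 1 by 1.14 on the log2 scale (SE 0.25, adjusted p = 0.00443, edgeR) and Rpph1 by 0.96 (SE 0.20, adjusted p = 0.00245). Rmrp had a value of 2.03 (SE 0.36). Leaving Rmrp aside, these 2 of 5 RNAs were called, both higher, while 11.7% of tested genes were called in this comparison. Neat1 had 0.76 (SE 0.27, adjusted p = 0.0707), Malat1 0.11 (SE 0.19) and Gm42418 -0.24 (SE 0.17). In bulk libraries, more RNA per cell and more cells that hold the RNA cannot be told apart.

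Rmrp, the RNA of RNase MRP, had few counts but the same order in each stratum. At day 14 it was at 10.3, 7.96 and 6.88 CPM in IR passage 2 and at 1.44, 4.72 and 0.469 CPM in IR passage 1. The sham libraries of that day were at 6.25, 7.09 and 15.9 CPM in passage 2 and at 4.05, 0.582 and 1.54 CPM in passage 1. At day 90 the values were 1.49, 2.92 and 1.62 CPM in IR passage 2 and 0.516, 0.661 and 0 CPM in IR passage 1. Passage 2 lay above passage 1 without overlap in all of these. It did so also in the sham libraries of day 90, at 1.498, 3.04 and 1.88 CPM in passage 2 and 0.564, 1.06 and 0.517 CPM in passage 1. The share of genes that are higher without overlap is 7.91% and 8.99% for IR and sham at day 90, and 7.86% and 8.30% at day 14. At day 90 the differences of Rmrp did not pass the edgeR test (adjusted p = 0.447 for IR and 0.344 for sham). Those of day 14, and their lack of overlap, are tied to the filter, which Rmrp passed through day 14, passage 2. Without the library that stood apart, the sham difference at day 14 was 3.13, against 2.30 with it, and both values are tied to the filter.

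Rpph1, the RNA of RNase P, was at 11.8 CPM or more in the 6 libraries of day 14, passage 2 and at 10.8 CPM or less in the other 18. IR organoids of day 14 were at 28.1, 23.9 and 15.6 CPM in passage 2 and at 5.29, 7.56 and 2.81 CPM in passage 1. Sham organoids were at 21.03, 11.8 and 21.5 CPM in passage 2 and at 10.8, 5.24 and 5.65 CPM in passage 1. Neither pair overlapped, as for 7.86% of genes in IR and 8.30% in sham organoids in this direction. The log2 fold changes were 2.17 (SE 0.37, adjusted p = 0.00719) for IR, where 1.38% of genes were called, and 1.35 (SE 0.35, adjusted p = 0.0614) for sham, where 1.18% were called. Without the library that stood apart the sham value was 1.73 (adjusted p = 0.0435). The call in IR was lost in a fit of those 2 groups alone (adjusted p = 0.0548) and without IR replicate 1 of day 14, passage 1 (adjusted p = 0.0656). At day 90 Rpph1 differed between passages by 0.46 (SE 0.45) in IR and -0.13 (SE 0.39) in sham organoids, where 0% and 1.36% of genes were called.

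Whether the passage difference of Rpph1 itself differed between the days was tested as an interaction, averaged over both treatments. It was -1.60 (SE 0.40) on the log2 scale, with an unadjusted p of 0.000594, the eighth smallest of all genes. No gene passed the correction in this test, and the adjusted p of Rpph1 was 0.518. By DESeq2 0 of the 6 RNAs were called, and by edgeR 1 of the 6, Rpph1, had an unadjusted p under 0.05. For Rmrp and Rn7sk the interaction was -0.41 (SE 1.04) and 0.00 (SE 0.43).

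Rn7sk, the 7SK RNA, had more scattered values by passage. IR organoids of day 14 were at 189, 111 and 113 CPM in passage 2 and at 58.2, 55.7 and 31.9 CPM in passage 1, without overlap, as for 7.86% of genes in this direction. Sham organoids of day 90 were at 39.2, 84.2 and 39.8 CPM in passage 2 and at 20.3, 33.4 and 24.3 CPM in passage 1, again without overlap, as for 8.99% of genes. In the other pairs the passages overlapped, for sham at day 14 through the library that stood apart, at 127 CPM. The 8 immune markers summed to 0.403 to 6.49 CPM in passage 2 and to 1.09 to 49.2 CPM in passage 1, and the ranges overlapped. Lyz2, the lysozyme of myeloid cells, had a value of -5.33 on the log2 scale (SE 0.71) and was the only one of the 8 tested. It passed the filter on low counts through passage 1, so its value is tied to the filter and given without a p. Their part in the passage differences was not tested.

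Neat1 and Malat1 had passage ranges without overlap in some strata, and none of their passage differences within strata passed the test. Their passage by day interaction did not pass either (adjusted p = 0.745 for Neat1 and 0.692 for Malat1, edgeR). Neat1 was at 571, 1006 and 639 CPM in passage 2 and at 148, 332 and 180 CPM in passage 1 of the sham organoids of day 90, without overlap (log2 fold change 1.75, SE 0.54, adjusted p = 0.119), as for 8.99% of genes in this direction. In IR organoids of day 14 it also had no overlap (1.48, SE 0.55, adjusted p = 0.204), as for 7.86% of genes. In sham organoids of day 14 the passages of Neat1 overlapped (-0.85, SE 0.54). Gm42418 lay lower in passage 2 of IR organoids of day 90, without overlap (-0.53, SE 0.35, adjusted p = 0.620), as 6.92% of genes did. Malat1 had 1.04 (SE 0.38, adjusted p = 0.202) in sham organoids of day 90 and -1.02 (SE 0.38, adjusted p = 0.259) in sham organoids of day 14. The averaged passage difference of Neat1 passed the threshold without sham replicate 1 of day 14, passage 1 (1.02, adjusted p = 0.0081), without sham replicate 2 of day 90, passage 1 (0.86, adjusted p = 0.0455) and without IR replicate 3 of day 90, passage 1 (1.01, adjusted p = 0.00981).

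**Figure D2:**
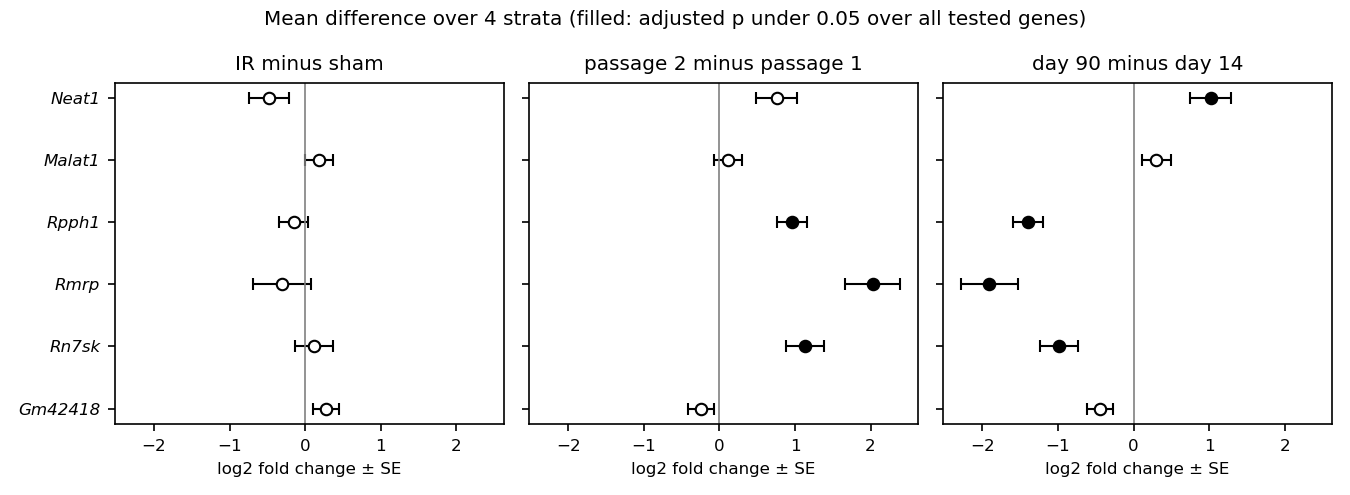
Log2 fold change with its SE for each RNA, averaged over 4 strata, for IR minus sham, passage 2 minus passage 1 and day 90 minus day 14. Filled points passed an adjusted p of 0.05 over all tested genes, which for Rmrp is tied to the filter on low counts. No point is filled for IR, and Rpph1, Rmrp and Rn7sk lie above 0 for passage and below 0 for day.

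On average over the strata, time after irradiation or sham treatment went with Neat1 in one direction and with Rpph1 and Rn7sk in the other. Averaged over the 4 strata of passage and treatment, Neat1 was higher at day 90 than at day 14 by 1.02 on the log2 scale (SE 0.27, adjusted p = 0.0314, edgeR). Rpph1 fell by 1.40 (SE 0.20, adjusted p = 0.000436) and Rn7sk fell by 0.98 (SE 0.25, adjusted p = 0.0262). Rmrp had a value of -1.91 (SE 0.38). Leaving Rmrp aside, these 3 of 5 RNAs were called, where 4.81% of tested genes were. Malat1 had 0.30 (SE 0.19, adjusted p = 0.385) and Gm42418 -0.44 (SE 0.17, adjusted p = 0.145).

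The call of Neat1 was close to the threshold. It was lost without any 1 of 10 of the 24 libraries, with adjusted p of 0.0503 to 0.0719 and log2 fold changes of 0.77 to 1.01. These were sham replicates 2 and 3 and IR replicates 2 and 3 of day 14, passage 1, sham replicates 1 and 2 and IR replicate 1 of day 14, passage 2, sham replicate 2 and IR replicate 3 of day 90, passage 1, and sham replicate 2 of day 90, passage 2. The call of Rn7sk was lost without sham replicate 1 of day 14, passage 1, the library that stood apart (-0.81, adjusted p = 0.0517). It was also lost with the share of reads on no gene as a covariate (-0.63, adjusted p = 0.114). That of Rpph1 was kept without each library in turn.

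The largest day difference of Neat1 was in sham organoids of passage 2. They were at 571, 1006 and 639 CPM at day 90 and at 98.9, 76.2 and 171 CPM at day 14, without overlap, as for 11.1% of genes in this direction. The log2 fold change was 2.67 (SE 0.56, adjusted p = 0.0336), where 0.426% of genes were called. Without 1 of 5 of these 6 libraries, all but sham replicate 1 of day 90, the call was lost, with log2 fold changes of 2.40 to 3.07 and adjusted p of 0.0762 to 0.180. Malat1 in the same libraries was at 10871, 11592 and 7529 CPM at day 90 and at 3551, 2107 and 3697 CPM at day 14, also without overlap. Its log2 fold change of 1.68 (SE 0.39) had an adjusted p of 0.0529 with edgeR and 0.00268 with DESeq2. Gm42418 took 15.5%, 14.3% and 13.1% of gene counts at day 90 and 28.4%, 25.5% and 22.6% at day 14 in these libraries. It was again without overlap, as for 11.3% of genes in this direction. The difference was -1.08 on the log2 scale (SE 0.35, adjusted p = 0.158 with edgeR and 0.0462 with DESeq2). In IR organoids of passage 2 the day differences were 0.26 (SE 0.53) for Neat1 and -0.36 (SE 0.38) for Malat1. Those of Neat1 in passage 1 were 1.08 (SE 0.56) in IR and 0.08 (SE 0.53) in sham organoids, neither called.

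Rpph1 fell with time in passage 2 in both treatments. IR organoids had 6.25, 3.34 and 3.65 CPM of Rpph1 at day 90 and 28.1, 23.9 and 15.6 CPM at day 14. Sham organoids had 4.19, 4.26 and 4.13 CPM at day 90 and 21.03, 11.8 and 21.5 CPM at day 14. Day 90 lay below day 14 without overlap in both, as for 7.09% and 11.3% of genes in this direction. In passage 1 the day differences of Rpph1 on the log2 scale were -0.57 (SE 0.47) in IR and -0.62 (SE 0.39) in sham organoids, neither called.

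The log2 fold changes of Rpph1 were -2.29 (SE 0.35, adjusted p = 0.00689) for IR and -2.11 (SE 0.35, adjusted p = 0.00696) for sham, the second and the sixth smallest p of all genes. In these comparisons 0.435% and 0.426% of genes were called. The IR call was lost without IR replicate 3 of day 90 (-2.16, adjusted p = 0.0769) and in a fit of those 2 groups alone (-2.29, adjusted p = 0.300). The sham call was lost without sham replicate 3 of day 14 (-1.96, adjusted p = 0.0640) and without sham replicate 2 or 3 of day 90 (adjusted p = 0.0577 and 0.0505). The libraries of passage 2 held 2367849 to 3068029 gene counts at day 90, against 1694307 to 2510480 at day 14. What depth contributed was not tested.

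Rmrp and Rn7sk had lower means at day 90 in passage 2, without passing the test there. Rmrp was at 1.49, 2.92 and 1.62 CPM in IR organoids at day 90 of passage 2. It was at 10.3, 7.96 and 6.88 CPM at day 14, or -2.05 on the log2 scale (SE 0.55). The sham libraries gave -2.18 (SE 0.53), and neither pair overlapped, as for 7.09% of genes in IR and 11.3% in sham organoids. These Rmrp differences and their lack of overlap are tied to the filter, which it passed through day 14, passage 2. Rn7sk differed by -0.84 (SE 0.47) in IR, where the days overlapped, and by -1.13 (SE 0.48, adjusted p = 0.297) in sham organoids, where they did not, as for 11.3% of genes. In passage 1, Gm42418 in IR organoids lay higher at day 90 without overlap, as 6.23% of genes did, and Rn7sk in sham organoids lower, as 6.72% did. No RNA was called there, where 0.170% of genes were called for IR and 0% for sham. In that passage edgeR gave 1 of the 6, Rn7sk in sham organoids, an unadjusted p under 0.05, and DESeq2 called 0. That Rn7sk difference was -1.42 with the library that stood apart and -0.73 without it, and -0.09 with the share of reads on no gene as a covariate.

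The order of the groups differed between the RNAs. Neat1 averaged 739 ± 234 CPM (SD, n = 3) in sham organoids of day 90, passage 2, above every other group, of which the next was IR of the same day and passage at 285 ± 106 CPM. The 6 groups below, from 237 to 85.3 CPM, each overlapped their neighbours in the order. Rpph1 averaged 22.5 ± 6.38 CPM in IR and 18.1 ± 5.47 CPM in sham organoids of day 14, passage 2, with the other 6 groups between 3.28 and 7.23 CPM. Rmrp averaged 8.39 ± 1.76 CPM in IR and 9.76 ± 5.36 CPM in sham organoids of that stratum, with the other groups between 0.392 and 2.21 CPM. Within each of these pairs IR and sham overlapped.

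Relations across the 24 libraries were measured as Pearson's r and Spearman's rho of log2 CPM, with permutation p adjusted over the 21 relations computed, 15 between RNAs and 6 with the share of reads on no gene. All CPM values of a library share 1 total, so these are descriptions of shared variation. Every r within day 14, passage 1 includes the library that stood apart and was not computed without it. Of the 21, 6 passed an adjusted p of 0.05 over all libraries, 7 did so as deviations from the group means, and 4 did both. These counts are for Pearson's r. They include Rmrp with Rpph1 and with Rn7sk, whose pooled r take in the level of Rmrp that is tied to the filter. By Spearman's rho of the deviations, of those 7 only Neat1 with Malat1 (adjusted permutation p = 0.0206) and Malat1 with Rn7sk (adjusted permutation p = 0.0345) passed.

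Neat1 and Malat1 varied together, with r of 0.74 or more in all 4 strata. The pooled r was 0.77 (rho 0.78, adjusted permutation p = 0.00014), and 0.74 without the 2 libraries farthest from the median of Neat1. As deviations from the 8 group means r was 0.81 (adjusted permutation p = 0.0426). In the 4 strata of 6 libraries it was 0.88 at day 90, passage 2, 0.74 at day 90, passage 1, 0.78 at day 14, passage 2 and 0.82 at day 14, passage 1. The value of 0.82 includes the library that stood apart, at 427 CPM of Neat1 and 11164 CPM of Malat1. The other libraries of that stratum were at most at 113 and 6495 CPM, and r among them alone was not computed. By r with Malat1, Neat1 ranked number 3 of the 10562 other tested genes. Frmd8, which lies beside Neat1, had r = -0.33 with it.

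Among Rpph1, Rmrp and Rn7sk, r was positive in some strata and negative in others. For Rpph1 and Rmrp the 6 libraries of day 14, passage 2 formed a cluster of their own, so no pooled r is given. Inside that cluster r was 0.44, and over the other 18 libraries it was 0.63, but within day 90, passage 2 it was -0.53. As deviations from the group means it was 0.69 (adjusted permutation p = 0.0431). Rmrp and Rn7sk had a pooled r of 0.85 (rho 0.84), and 0.80 without the 2 farthest libraries. These pooled values take in the high Rmrp of day 14, passage 2, through which it passed the filter, so they are given without a p. That pair had r of 0.69 over the 18 libraries and 0.57 as deviations (adjusted permutation p = 0.0431), but -0.25 within day 90, passage 1. Rpph1 and Rn7sk had a pooled r of 0.70 (rho 0.61, adjusted permutation p = 0.000893) but 0.27 over the 18 libraries and 0.21 as deviations (adjusted permutation p = 0.435), with -0.84 within day 90, passage 2, so that relation rests on the differences between groups.

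Of the 6 pairs of a long with a short RNA, 0 passed over all libraries and 2 did as deviations. Malat1 had a pooled r of -0.04 with Rpph1 and 0.19 with Rn7sk. As deviations from the group means the values were 0.63 and 0.61, both with an adjusted permutation p of 0.0431. Without the 2 farthest libraries they were 0.54 and 0.52. Within strata Malat1 and Rpph1 had r of 0.07 at day 90, passage 2 and -0.05 at day 90, passage 1. At day 14 that pair had 0.71 in passage 2 and 0.74 in passage 1. Malat1 and Rn7sk had -0.16 at day 90, passage 2 and 0.95 at day 90, passage 1. At day 14 they had 0.42 in passage 2 and 0.91 in passage 1. The other 4 pairs had adjusted permutation p of 0.194 to 0.428 as deviations. Neat1 and Gm42418 were inversely related, with a pooled r of -0.60 (rho -0.47, adjusted permutation p = 0.0071 for r and 0.0808 for rho), -0.46 without the 2 farthest libraries and -0.25 as deviations (adjusted permutation p = 0.318). Within strata that r was -0.84 at day 90, passage 2 and 0.70 at day 14, passage 1, where the library that stood apart is included.

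**Figure D3:**
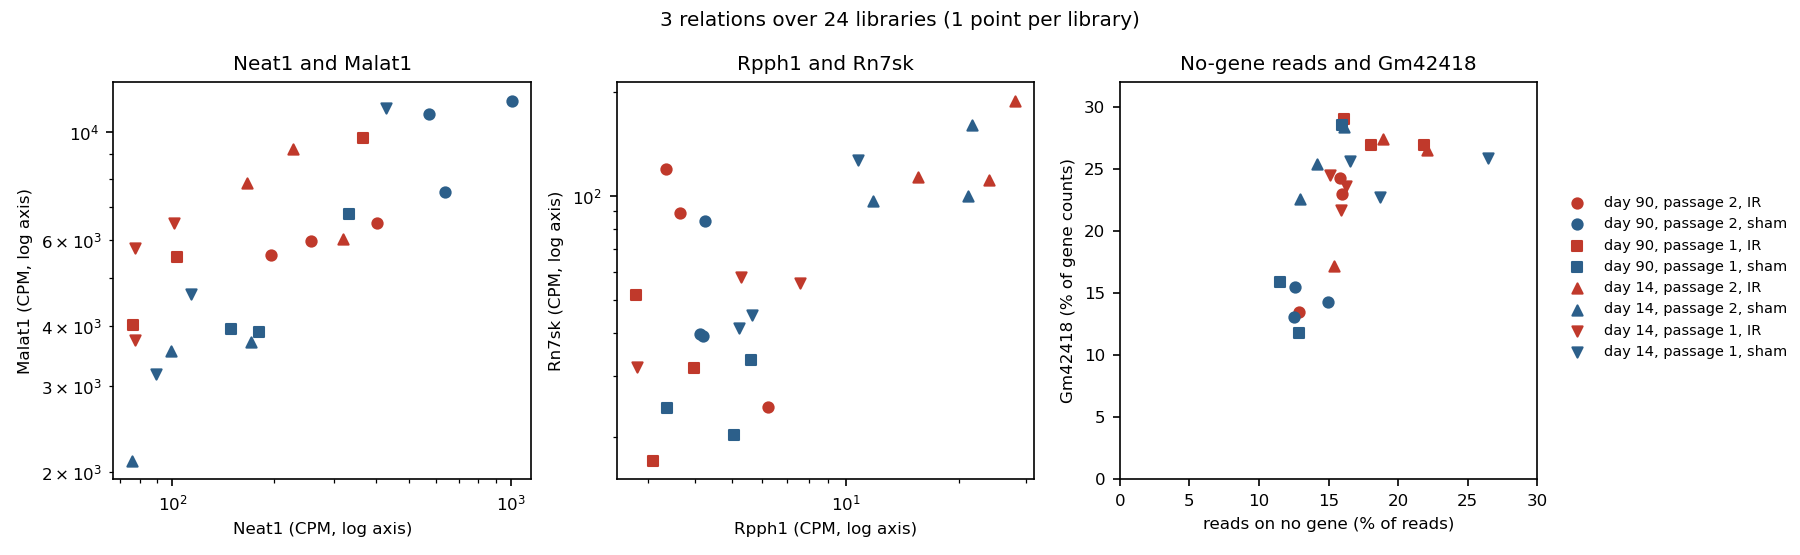
Malat1 against Neat1 and Rn7sk against Rpph1 (CPM, log axes), and the share of gene counts on Gm42418 against the share of reads on no gene (percent), with 1 point per library, the colour for treatment and the symbol for day and passage. Malat1 rises with Neat1 across all groups (r = 0.77), while in the middle plot the 6 libraries of day 14, passage 2 lie to the upper right.

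Over all libraries the share of reads on no gene passed the threshold with Gm42418 and with 0 of the 5 other RNAs. The pooled r was 0.63 (rho 0.75, adjusted permutation p = 0.00466), 0.67 without the 2 farthest libraries and 0.53 as deviations from the group means (adjusted permutation p = 0.0431). The 4 strata gave 0.83 at day 90, passage 2, 0.72 at day 90, passage 1, 0.43 at day 14, passage 2 and 0.64 at day 14, passage 1. By this r Gm42418 ranked number 128 of 10563 tested genes, and 1.83% of genes had an r as far from 0. The 6 libraries with the lowest shares of Gm42418, 11.8% to 15.9%, had 11.5% to 14.9% of reads on no gene.

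For the other RNAs the share passed the threshold with Rn7sk alone, and as deviations. Rn7sk had a pooled r of 0.37 with it (adjusted permutation p = 0.236) and 0.62 as deviations (adjusted permutation p = 0.0431). Malat1 had 0.33 (adjusted permutation p = 0.257) and 0.61 (adjusted permutation p = 0.138). Without the 2 farthest libraries the pooled values were both 0.10, so they rest on those libraries. Neat1, Rpph1 and Rmrp had pooled r of -0.05, 0.24 and 0.10 with the share.

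The share itself differed between IR and sham in opposite ways by stratum. It averaged 14.9% ± 1.76 in IR and 13.4% ± 1.36 in sham libraries of day 90, passage 2 (SD, n = 3), 18.7% ± 2.92 and 13.4% ± 2.30 in IR and sham libraries of day 90, passage 1, 18.8% ± 3.34 and 14.4% ± 1.63 in those of day 14, passage 2, and 15.7% ± 0.554 and 20.5% ± 5.23 in those of day 14, passage 1. IR lay above sham without overlap at day 90, passage 1 (16.1% to 21.8% against 11.5% to 15.98%) and below it without overlap at day 14, passage 1 (15.1% to 16.2% against 16.5% to 26.5%). The mean difference, IR minus sham, was 1.58 percentage points, with p = 0.269 in a two-sided exact permutation test within the strata. Without sham replicate 1 of day 14, passage 1 it was 2.32 points, with p = 0.0334 in the same exact permutation test.

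**Figure D4:**
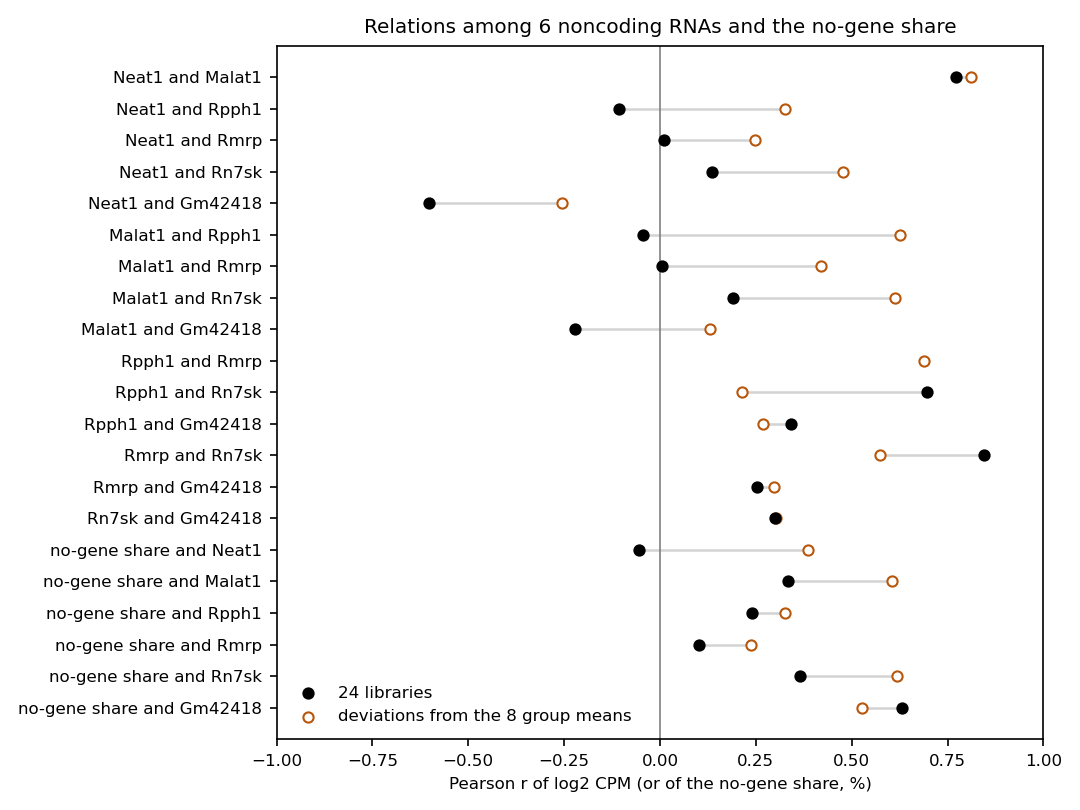
Pearson r of 21 relations, as filled points over the 24 libraries and as open points for the deviations from the 8 group means. For Rpph1 and Rmrp the r over 24 libraries is left out because the libraries fell into 2 clusters. Neat1 and Malat1 have high values in both (0.77 and 0.81), and Malat1 with Rpph1 moves from -0.04 to 0.63. Within the day 90 strata that last pair had r of 0.07 in passage 2 and -0.05 in passage 1.

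The genes most like each RNA were taken from the 5853 tested genes with a mean of at least 20 CPM, by r over the 24 libraries, leaving out predicted genes. For Neat1 they were Ogt, the O-GlcNAc transferase, at 0.91, the long noncoding RNA Firre at 0.83 and the ribosome biogenesis ATPase gene Nvl at 0.82. For Malat1 they were Odf2l at 0.86, Ogt at 0.73 and Zfc3h1, of the nuclear RNA exosome's PAXT connection, at 0.73. As deviations from the group means these 6 values were 0.67 to 0.88. Ogt had values of 0.62 (SE 0.15) for day 90 and 0.51 (SE 0.15) for passage 2. It was picked by its r with Neat1 in these libraries, so sharing the directions of Neat1 follows from that choice.

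For the short RNAs the genes were of several kinds. The mitochondrial mRNA mt-Co1 was first for Rpph1 (0.77) and for Rn7sk (0.80), and Rpf1, a ribosome production factor, was first for Rmrp (0.78) and in place 3 for Rpph1 (0.72). The other places were Rpl13a, a ribosomal protein gene, for Rpph1 (0.74), Tax1bp1 and Acap2 for Rmrp (0.77 and 0.75), and Rgl2 and mt-Nd5 for Rn7sk (0.74 and 0.71). Within groups mt-Co1 kept an r of 0.68 with Rn7sk but 0.05 with Rpph1. The gene mt-Co1 had values of -0.90 for day 90 (SE 0.12) and 0.35 for passage 2 (SE 0.12). These are the directions of Rpph1 and Rn7sk, by whose r it was picked. For Gm42418 the list was Mir6236 at 0.94, Cox6a1 at 0.80 and Lars2 at 0.79, with 0.94, 0.79 and 0.61 as deviations. These r were the highest of 5853, so they and the differences of Ogt and mt-Co1 are given as a description only.

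The counts for the partner lists stand beside 11.0% of all tested genes called for IR, 11.7% for passage and 4.81% for day. Of the 13 paraspeckle protein genes tested, 0 were called for passage or day. Of 14 genes for nuclear speckle and Malat1 partner proteins, 0 were called for passage or day. The median log2 fold changes of both lists lay between -0.07 and 0.03 in the averaged comparisons, where the median over all tested genes was 0.00 in each. Neat1 itself had 1.02 for day with all 13 paraspeckle genes uncalled.

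RNase P and RNase MRP share most of their subunits. Of their 10 tested protein genes, 0 were called for passage, 1 was higher at day 90, Rpp38 (0.79, SE 0.15, adjusted p = 0.0035), and 1 fell in IR organoids, Rpp40, by 0.63 (SE 0.18, adjusted p = 0.0302). Rpph1 was lower at day 90, where Rpp38 was higher. Of the 7 genes of the 7SK particle and P-TEFb, Hexim1, whose protein inhibits P-TEFb in the particle, was higher in passage 2 by 0.45 (SE 0.12, adjusted p = 0.0199), and Mepce, which caps 7SK RNA, was higher at day 90 by 0.53 (SE 0.11, adjusted p = 0.00618). None was called for IR. Of 32 genes of RNA polymerase III and its factors, 1 was higher and 1 lower in passage 2, where 11.7% of all tested genes were called. Both belong to the SNAPc complex. Snapc1 had 0.39 (SE 0.12, adjusted p = 0.0383) and Snapc5 -0.65 (SE 0.17, adjusted p = 0.0163). None of the 32 was called for day or for IR.

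Few other folded RNAs could be tested. Of 27 small structured RNAs listed, 26 were in the tables and 7 passed the filter, 2 of them higher and 0 lower in passage 2, where 11.7% of genes were called: Snord118, the U8 RNA of ribosomal RNA processing (1.47, SE 0.39, adjusted p = 0.0174), and Rnu12, of the minor spliceosome (1.60, SE 0.43, adjusted p = 0.0178). Scarna2, a guide RNA of Cajal bodies, fell by 1.60 at day 90 (SE 0.32, adjusted p = 0.00574). The list's median log2 fold change was 0.92 for passage, 0.05 for day, beside 0.00 over all genes, and -0.50 for IR, where 0 were called. The other 19 of the 26 did not pass the filter, and counts of small RNAs inside or beside other genes are uncertain.

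Among 20 other long noncoding RNAs, 4 were higher and 0 lower in passage 2, with a list median of 0.22, where 553 genes of all tested were higher and 679 lower. Epb41l4aos had 0.50 (SE 0.10, adjusted p = 0.0013), Gas5, a host of small nucleolar RNAs, 0.48 (SE 0.09, adjusted p = 0.00115) and Zfas1, another such host, 0.45 (SE 0.10, adjusted p = 0.0047). In IR organoids, where 11.0% of genes were called, 2 fell, Epb41l4aos by 0.44 (SE 0.10, adjusted p = 0.00488) and Gas5 by 0.31 (SE 0.09, adjusted p = 0.026). For day, where 4.81% of genes were called, 1 was higher, Snhg20 by 0.88 (SE 0.21, adjusted p = 0.0211), and 1 fell, Snhg1 by 0.31 (SE 0.09, adjusted p = 0.0422). Neat1 was called for day and Malat1 for none of the 3 averaged comparisons.

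Gm26917, its neighbour at the ribosomal RNA repeat, was higher in passage 2 by 1.07 (SE 0.12, adjusted p = 3.23e-06), where Gm42418 had -0.24, and fell by 0.46 at day 90 (SE 0.12, adjusted p = 0.0267), where Gm42418 had -0.44. Their r over the 24 libraries was -0.11. Of 7 tested mitochondrial mRNAs, 4 were lower at day 90 and 0 higher, with a median of -0.49, among them mt-Co1, mt-Nd6 (-0.89, SE 0.22) and mt-Cytb (-0.56, SE 0.14). The listed mitochondrial mRNAs together took 1.07% to 2.56% of gene counts at day 90 and 1.52% to 2.47% at day 14, ranges that overlap. The mitochondrial ribosomal RNA mt-Rnr2 fell by 0.48 (SE 0.11, adjusted p = 0.0171). Mitochondrial ribosomal RNA took 8.35% to 11.4% of gene counts at day 90 and 10.2% to 15.8% at day 14. This moved in the direction of Rpph1, Rmrp and Rn7sk, and its part in their differences was not tested.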

How the data were processed

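QuantSeq 3' libraries of 24 organoid samples were compared. The values are raw read counts per gene, deposited by the authors as 1 table per library, each with 47643 genes and 5 closing lines for reads on no gene, ambiguous reads and the like, which stayed out of totals and tests. Demultiplexing with bcl2fastq and the GRCm39 build are named in the submitters' processing notes. No source used here gives the aligner, the counting tool, its annotation or its strand setting. Groups follow the labels. Symbols from GENCODE M21 matched 47224 identifiers.

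Counts were fitted with edgeR 4.0.16 (R 4.3.3), with TMM scaling, the filterByExpr filter, a quasi-likelihood fit of all 8 groups and Benjamini-Hochberg adjustment over 10563 genes at 0.05. DESeq2 1.42.0 was the other tool. For relations, log2 CPM had a prior count of 1 and p came from 100000 permutations. The scripts were tested on simulated data. Shares are of gene counts, or of gene, ambiguous and no-gene reads for the share on no gene. The text names the 6 RNAs, for each the 3 genes of highest r, and of each partner list up to 3 called genes of smallest p, plus an adjacent gene and the markers. Some results that this rule would name, and the IR counts of the paraspeckle and nuclear speckle lists, are not reported here. The members and lists were chosen with earlier results of these data known. The comparisons of passage and day within strata, their interaction, the interaction of IR with day in passage 2, and the fit without libraries above 20% of reads on no gene were added after the data were seen. Libraries of a group differed by more than sampling noise in all 24 pairs (chi-square over its degrees of freedom, 2.20 to 29.5), and each was kept as a sample.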

Additional observations from a re-analysis of the deposited data

Results flagged for a closer look

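Malat1 in passage 2 had IR effects of opposite sign at the 2 days: -0.73 on the log2 scale at day 90, where all 3 IR libraries lay below all 3 sham libraries, and 1.30 at day 14, where all 3 lay above. These arrangements were found, in the same direction, for 9.64% and 6.06% of tested genes. The difference between the days was tested as an interaction and did not pass the correction (adjusted p = 0.532, edgeR).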

How the results depend on the processing

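The averaged passage calls of Rpph1 and Rn7sk and the day call of Rpph1 held under all 9 settings and without each of the 24 libraries in turn. Of the values for single RNAs and relations under other settings, 2112 kept direction and side of the threshold, 61 passed it newly, 28 no longer passed, 11 reversed and 15 relations moved.

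With no filter on low counts 22785 genes were tested. The number of the 6 RNAs called was then 1 for IR on average, 1 at day 14, passage 1, 2 at day 14, passage 2 and 2 at day 90, passage 2, 2 for the IR by day interaction on average and 2 in passage 2. For passage it was 2 for IR and 3 for sham at day 90, and 4 for IR and 5 for sham at day 14. For day it was 3 for IR and 6 for sham in passage 2, and 1 for IR and 1 for sham in passage 1, and for the passage by day interaction 3. Over all genes it called 1642 for IR, 1760 for passage and 970 for day, against 1162, 1232 and 508.

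Scaling by total counts moved the median of all genes by 0.14 for day on average and 0.23 in sham organoids of passage 2. It called 1410 genes for day, 1270 of them higher, against 508 with 257 higher under TMM. It called 4 of the 6 RNAs for day in sham organoids of passage 2, as DESeq2 did, and 2 for passage in sham organoids of day 14, where DESeq2 called 1. By total counts Rmrp was among the 4 and the 2, and by DESeq2 it was the 1. Those calls of Rmrp are tied to the filter. Over all genes in sham organoids of passage 2, DESeq2 called 118 for day. Fitting only the compared groups called 0 for passage in IR organoids of day 14, 0 for day in IR organoids of passage 2 and 1 for passage in sham organoids of day 90. Without the libraries above 20% of reads on no gene, 1 was called for IR at day 90, passage 2, 2 for passage in IR organoids of day 14 and 1 in sham organoids of day 90. The causes were not tested.

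Leaving out 1 library at a time gave 0 to 1 called for passage in IR and 0 to 2 in sham organoids of day 14, 0 to 1 for day in IR and 0 to 3 in sham organoids of passage 2, and an IR minus sham difference in the share on no gene of 1.07 to 2.32 points. The 2 in sham organoids of day 14 were Rpph1 and Rmrp, the latter tied to the filter. Some uncalled values reversed. Rn7sk for IR at day 14, passage 1 became 0.36 with the share on no gene as a covariate and 0.15 without the libraries above 20%, and ranged from -0.82 to 0.15 over the left-out libraries. Malat1 for IR at day 90, passage 1 became -0.32 and -0.030 in the same settings, and ranged from -0.030 to 0.72. As deviations from group means, r reversed to 0.33 for Neat1 and Rpph1, 0.63 for Malat1 and Rpph1, 0.13 for Malat1 and Gm42418 and 0.39 for Neat1 and the share on no gene. Malat1 and Rmrp had r = -0.042 by total counts.

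Deviations of IR and sham libraries of the same day and passage had r from -0.18 to 0.36 at the same replicate number (12 pairs). At different numbers r was -0.43 to 0.30 (24 pairs). Between the passages of the same day and treatment, same-numbered libraries had r from -0.13 to 0.38, and others from -0.42 to 0.33. The numbers are those of the sample titles, and some libraries carry a different number in another label. Whether the numbers pair the libraries cannot be decided from these overlapping ranges. With a replicate block 1 RNA was called for passage in sham organoids of day 14, Rpph1 at 1.39 (adjusted p = 0.0419). Low counts limit Rmrp and Rpph1 most.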
